A study of Homo sapiens with 8 samples.

Results

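The metallothionein and zinc response genes described here are 9 genes chosen by symbol: the metallothioneins MT1E, MT1F, MT1G, MT1H, MT1M, MT1X and MT2A, the zinc exporter gene SLC30A1 and the metal-sensing transcription factor gene MTF1. All 9 were found among the 24462 genes of the count table, and all 9 passed the filter on low counts that left 12577 genes for testing. Transcripts were counted by RNA sequencing in HepG2, a liver cancer line of human origin, in 4 libraries with EDN1 overexpression and 4 mock libraries. The product of EDN1 is processed to endothelin-1, a peptide that constricts blood vessels. Both groups were grown in the same serum-supplemented medium without further treatment. The labels do not say how EDN1 was overexpressed, whether the line was a clone, or whether each library stands for a culture of its own. The p-values therefore cover only the spread among these 8 libraries, and in bulk RNA fewer cells with a transcript and less of it per cell cannot be told apart.

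Metallothioneins are small, cysteine-rich proteins that bind zinc, copper and cadmium, and the liver is one of their main sites of expression. When free zinc rises, MTF1 binds metal response elements in the promoters of metallothionein genes and of SLC30A1, whose product, ZnT1, moves zinc out of the cell. These transcripts are in common use as a readout of zinc supply, and several metallothionein genes also respond to glucocorticoids and to heavy metals.

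The 7 metallothionein genes lie side by side on chromosome 16, between position 56608584, where MT2A starts, and position 56684196, where MT1X ends. SLC30A1 lies at chr1:211571568-211579161 and MTF1 at chr1:37809574-37859592. These positions are those of RefSeq on GRCh38.p14, whereas the submitters' processing notes name hg19. RefSeq promoter entries were matched by symbol for 5 of the 9 genes, and the 4 that held a metal response element core are shown, since these letters are what MTF1 is known to read. The lines give the 250 bases before the annotated start, 5′ to 3′ on the gene's strand, at chr16:56608334-56608583 (plus strand) for MT2A, chr16:56669564-56669813 (plus) for MT1H, chr16:56682220-56682469 (plus) for MT1X and chr1:211579162-211579411 (minus) for SLC30A1. Capitals mark each match to TGCACNC or TGCGCNC on either strand, so a match to the opposite strand reads in reverse complement.
MT2A: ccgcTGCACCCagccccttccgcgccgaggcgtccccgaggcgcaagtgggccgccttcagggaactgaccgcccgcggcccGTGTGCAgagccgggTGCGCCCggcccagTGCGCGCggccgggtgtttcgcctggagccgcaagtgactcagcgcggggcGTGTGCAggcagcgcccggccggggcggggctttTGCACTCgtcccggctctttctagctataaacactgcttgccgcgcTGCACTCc
MT1H: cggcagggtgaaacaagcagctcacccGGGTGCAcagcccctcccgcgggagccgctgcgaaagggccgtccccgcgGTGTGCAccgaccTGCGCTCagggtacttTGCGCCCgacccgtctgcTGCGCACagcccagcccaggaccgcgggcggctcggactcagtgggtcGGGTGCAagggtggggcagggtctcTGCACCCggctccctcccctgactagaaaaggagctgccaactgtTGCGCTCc
MT1X: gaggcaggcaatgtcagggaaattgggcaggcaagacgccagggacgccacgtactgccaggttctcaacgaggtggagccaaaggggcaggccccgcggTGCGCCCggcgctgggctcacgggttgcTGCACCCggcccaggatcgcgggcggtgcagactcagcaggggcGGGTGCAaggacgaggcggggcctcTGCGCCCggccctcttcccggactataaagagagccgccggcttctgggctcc
SLC30A1: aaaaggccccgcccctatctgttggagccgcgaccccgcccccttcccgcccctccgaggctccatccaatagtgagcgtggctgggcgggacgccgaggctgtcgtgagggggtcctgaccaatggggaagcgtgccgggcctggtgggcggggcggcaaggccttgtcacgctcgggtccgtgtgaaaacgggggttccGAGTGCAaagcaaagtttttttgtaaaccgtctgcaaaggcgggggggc

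MT1H held 8 matches, 5 on its own strand and 3 on the other. MT2A held 7, of which 5 were on its own strand. MT1X held 4 and SLC30A1 held 1, on the opposite strand. No match to these letters lay in the same window of MTF1, which is not printed. Of all 35116 promoter windows of this length, 24.8% held at least 1 match, 1.58% at least 3 and 0.12% at least 5. No match overlapped another. A match is a description of the sequence, and binding was not measured.

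**Figure D1:**
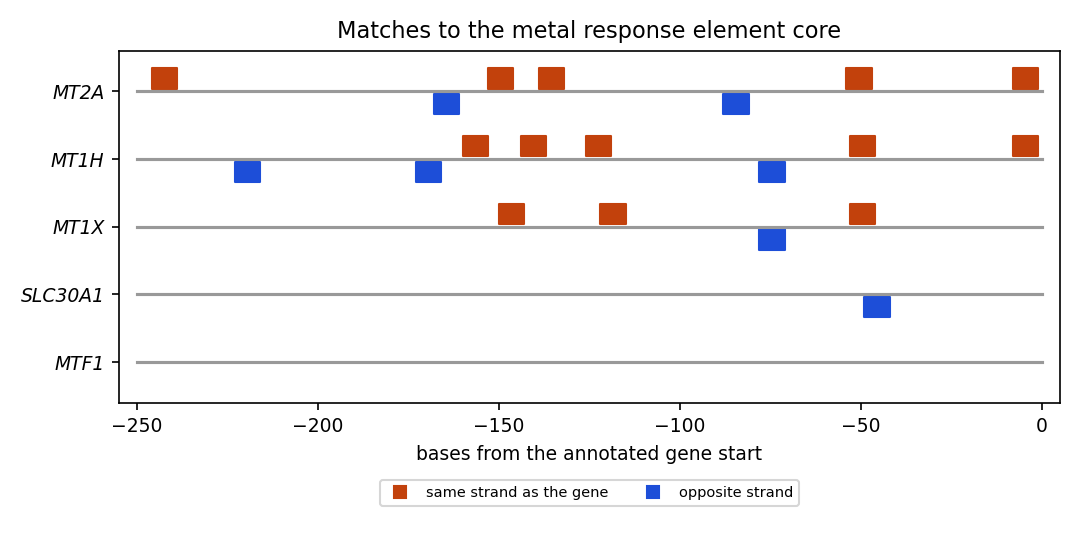
Matches to the metal response element core (TGCACNC or TGCGCNC) in the 250 bases before the annotated start of the 5 genes with a promoter entry, by distance from the start in bases, above the line on the gene's own strand and below it on the opposite strand. The 8 matches of MT1H and 7 of MT2A spread over the window. Those of MT1X, 4 in number, lie 150 to 47 bases before the start. SLC30A1 has 1 match and MTF1 none.

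The libraries held 8571252 to 11686180 counts in EDN1 overexpression and 8409173 to 14932385 in mock. EDN1 itself had 2284 to 4764 counts in the EDN1 overexpression libraries and 9 to 29 in mock, so every library matched its label. The 8 libraries also differed apart from the groups. The first principal component of all tested genes outside the gene lists, after centring on group means, held 45.1% of the variance and placed EDN1 3, EDN1 4, mock 2 and mock 4 (called here the second library set) on 1 side and EDN1 1, EDN1 2, mock 1 and mock 3 (the first library set) on the other. On this component EDN1 3 scored 8.40, mock 2 10.6, mock 4 35.45 and EDN1 4 45.9. The first set scored -30.9 to -19.0, so EDN1 3 and mock 2 lay nearest the cut between the sets. No label gives a batch, and values within each set are given beside the pooled ones. All 10 hepatocyte markers had more than 10 counts in every library. Their sum was 9469 to 12780 CPM (counts scaled by library size) in EDN1 overexpression and 10610 to 13310 CPM in mock. Fibroblast markers summed to 4.19 to 7.70 CPM in EDN1 overexpression and 5.00 to 8.70 CPM in mock, endothelial markers to at most 0.804 CPM in any library, and biliary markers to 534 to 897 CPM in EDN1 overexpression and 554 to 709 CPM in mock. The blood and immune list was carried by LYZ, with 4193 to 9943 counts per library, while CD3E had 0 counts in all libraries and PTPRC at most 1. The part of the library sets and of these markers in the results was not tested.

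None of the 9 genes passed the test between EDN1 overexpression and mock, in either direction. Each had an adjusted p of 0.9999 (quasi-likelihood test of edgeR, Benjamini-Hochberg over the whole table), where 1 of 12577 genes (0.00795%), EDN1, was called at 0.05. Unadjusted, 0 of the 9 had a p under 0.05, against 359 genes or 2.85% of all tested, and limma voom and DESeq2 also called none of them. The groups overlapped in each of the 9 genes, while they did not overlap in 257 genes (2.04%) of those tested. The median log2 fold change over the 9 genes was -0.23, beside 0.00 over all tested genes, with 6 negative and 3 positive values. Most of these genes spread widely between libraries of the same group, and that spread differed from member to member.

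MT2A, the most abundant metallothionein transcript, was also the steadiest of the 9 between libraries. It had 2601, 2109, 2320 and 1918 CPM in EDN1 1 to 4, and 2429, 2817, 2855 and 2368 CPM in mock 1 to 4. EDN1 4 was the lowest and mock 3 the highest, and the ranges overlapped. The means were 2237 ± 293 CPM in EDN1 overexpression and 2617 ± 255 CPM in mock (SD, n = 4 each). The log2 fold change was -0.23 (standard error 0.16, 95% limits -0.58 and 0.13), which bounds the fold between 0.670 and 1.09. It was -0.17 in the first library set alone and -0.30 in the second alone. MT2A kept a negative sign in all 24 alternatives, with values from -0.31 to -0.13, none of them called. Its highest library was 1.49 times its lowest, where the median over all tested genes was 1.92 times.

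MT1E, the next most abundant member, had 586, 424, 845 and 370 CPM in EDN1 1 to 4, and 537, 364, 546 and 619 CPM in mock 1 to 4. EDN1 3 was the highest, and mock 2 and EDN1 4 were the lowest, at nearly the same level. With EDN1 overexpression over mock, the log2 fold change was 0.11 (standard error 0.27, 95% limits -0.48 and 0.70), with -0.10 in the first library set alone and 0.30 in the second alone. Its sign turned to -0.17 when EDN1 3 was left out and to -0.03 when mock 2 was left out.

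MT1F had 90.7, 67.6, 110 and 22.1 CPM in EDN1 1 to 4, and 96.2, 23.0, 80.2 and 69.2 CPM in mock 1 to 4. EDN1 4 and mock 2 stood together at about the same low level, and the other 6 libraries lay between 67.6 and 110 CPM. This gave a log2 fold change of 0.11 (standard error 0.48, 95% limits -0.95 and 1.18), with -0.16 in the first library set alone and 0.51 in the second alone. MT1M followed a like course at a lower level, with 12.9, 10.5, 16.2 and 4.27 CPM in EDN1 1 to 4, and 20.7, 6.55, 20.5 and 15.8 CPM in mock 1 to 4. Its log2 fold change was -0.53 (standard error 0.42, 95% limits -1.45 and 0.39), the lowest of the 9, with an unadjusted quasi-likelihood p of 0.23 in edgeR. Within the first set it was -0.81 (edgeR p of 0.00285, adjusted 0.806, with adjusted values of 0.806 to 1 over its alternatives) and within the second -0.13.

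MT1G and MT1H spread the most. MT1G had 183, 116, 73.7 and 11.7 CPM in EDN1 1 to 4, and 188, 51.5, 171 and 41.5 CPM in mock 1 to 4. Its highest library, mock 1, was 16.1 times its lowest, EDN1 4, and 0.493% of tested genes had a ratio at least as large. The means of 96.0 ± 72.1 CPM in EDN1 overexpression and 113 ± 77.3 CPM in mock (SD, n = 4 each) gave a log2 fold change of -0.23 (standard error 0.69, 95% limits -1.77 and 1.30). The interval spans folds from 0.294 to 2.46, so differences of that size in either direction could not be told from none here. The value was -0.27 in the first library set alone and -0.13 in the second alone.

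MT1H had 58.8, 49.1, 38.1 and 6.01 CPM in EDN1 1 to 4, and 82.3, 19.0, 74.5 and 25.01 CPM in mock 1 to 4. Its highest library was 13.7 times its lowest, again mock 1 against EDN1 4. For MT1H the log2 fold change was -0.40 (standard error 0.62, 95% limits -1.77 and 0.97). In the first set, the values of EDN1 1 and EDN1 2 both lay below those of mock 1 and mock 3, with a log2 fold change of -0.54 (edgeR p of 0.00738, adjusted 0.806, with adjusted values of 0.806 to 1 over its alternatives). In the second set it was 0.00, with EDN1 3 above and EDN1 4 below both mock libraries. As for MT1M, the first set was formed from these same libraries, so the p within it is no evidence of a difference. In that set alone, 740 of 12593 tested genes had an unadjusted edgeR p under 0.05. How many genes of the table parted there as MT1H did was not counted.

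MT1X had 33.2, 22.8, 13.9 and 5.77 CPM in EDN1 1 to 4, and 24.97, 22.7, 24.6 and 9.19 CPM in mock 1 to 4. It parted from MT1F and MT1M in 1 respect: mock 2 was not low, and mock 4, EDN1 3 and EDN1 4 were the 3 lowest. For MT1X the log2 fold change was -0.10 (standard error 0.47, 95% limits -1.13 and 0.94), with 0.18 in the first library set alone and -0.68 in the second alone.

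**Figure D2:**
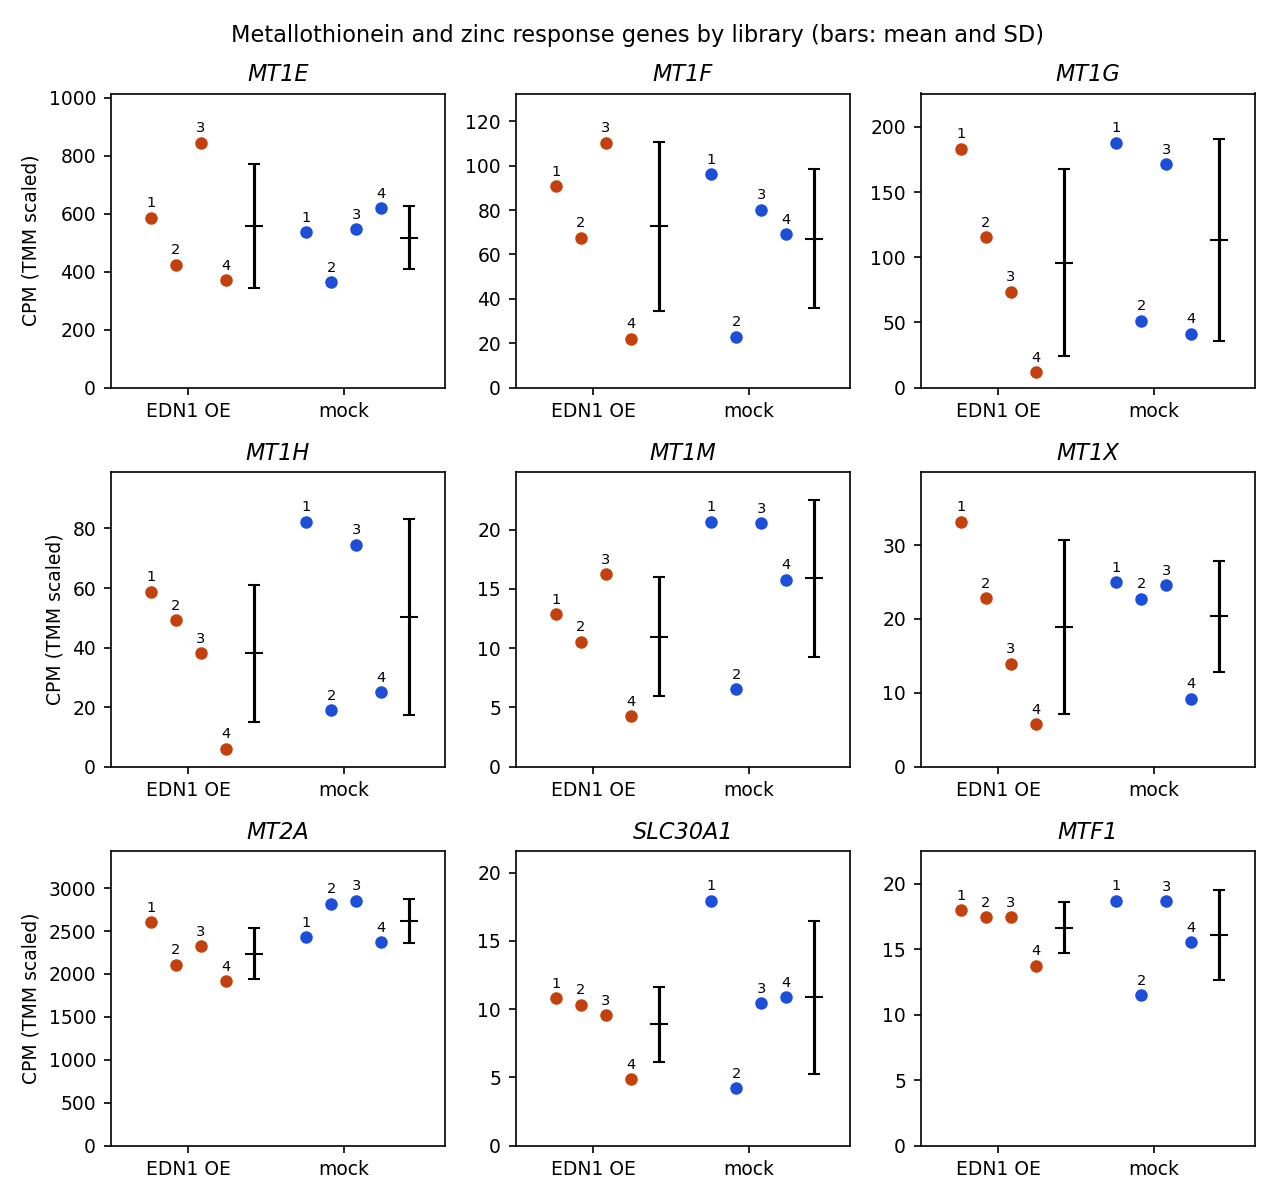
CPM (TMM scaled, linear axes from 0) of the 9 genes in each library, EDN1 overexpression on the left and mock on the right of each panel, with the replicate number above each point and the mean ± SD (n = 4) as a bar. EDN1 4 is the lowest or next to lowest library in all 9 panels, while MT2A and MTF1 vary least.

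SLC30A1, the exporter gene that MTF1 is known to switch on together with the metallothioneins, had 10.8, 10.3, 9.56 and 4.85 CPM in EDN1 1 to 4, and 17.9, 4.20, 10.4 and 10.8 CPM in mock 1 to 4. EDN1 4 and mock 2 were low and mock 1 was high, and the other 5 libraries lay close together. The log2 fold change was -0.30 (standard error 0.39, 95% limits -1.16 and 0.57), with -0.44 in the first library set alone and -0.08 in the second alone. Its counts ran from 34 to 230 per library. MTF1, which encodes the sensor itself, had 18.0, 17.5, 17.5 and 13.7 CPM in EDN1 1 to 4, and 18.7, 11.5, 18.7 and 15.5 CPM in mock 1 to 4. EDN1 4 and mock 2 were again the lowest, within a narrow range. The log2 fold change was 0.05 (standard error 0.20, 95% limits -0.38 and 0.48), so the fold lay between 0.767 and 1.39, with -0.08 in the first library set alone and 0.20 in the second alone.

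**Figure D3:**
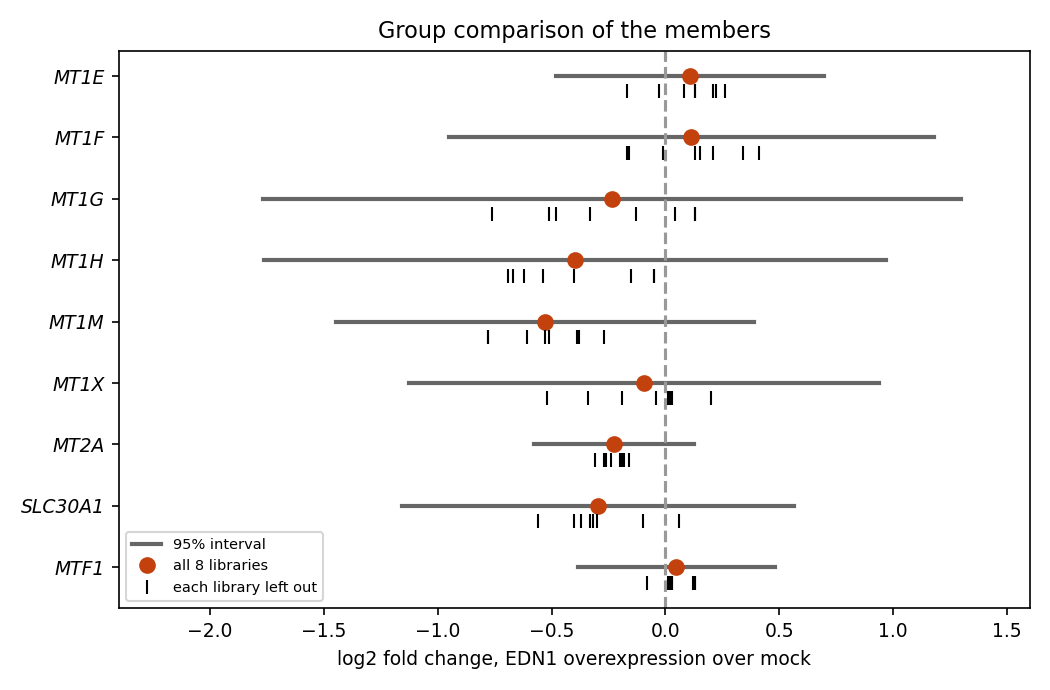
Log2 fold change of EDN1 overexpression over mock for the 9 genes (points) with the 95% interval (lines) and the values with each library left out in turn (ticks below). Every interval includes 0, from the narrow ones of MT2A and MTF1 to those of MT1G and MT1H, which span about 3 log2 units.

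The relative spread of a gene between libraries of one group is given by edgeR's biological coefficient of variation (BCV), which leaves out counting error. Each gene's value is drawn towards the trend over all genes, so the BCV is not that gene's own spread alone. It was 0.661 for MT1G, 0.597 for MT1H, 0.474 for MT1F and 0.459 for MT1X, above 99.5%, 99.1%, 96.6% and 96.0% of tested genes, where the median was 0.232. It was 0.410 for MT1M and 0.384 for SLC30A1, at percentiles 93.4 and 91.2. MT1E, at 0.277, stood at percentile 70.8. MTF1, at 0.207, and MT2A, at 0.181, stood at percentiles 34.5 and 15.2, so the most abundant metallothionein was among the steadier genes of the table. MT2A made up an uneven part of the summed counts of the 7 metallothioneins. In EDN1 overexpression it was 67.9% in EDN1 3 (Wilson 95% interval 67.4 to 68.4%) and 82.0% in EDN1 4 (81.5 to 82.6%). In mock it was 71.9% in mock 1 (71.5 to 72.3%) and 85.3% in mock 2 (84.8 to 85.7%). These intervals cover counting error only.

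**Figure D4:**
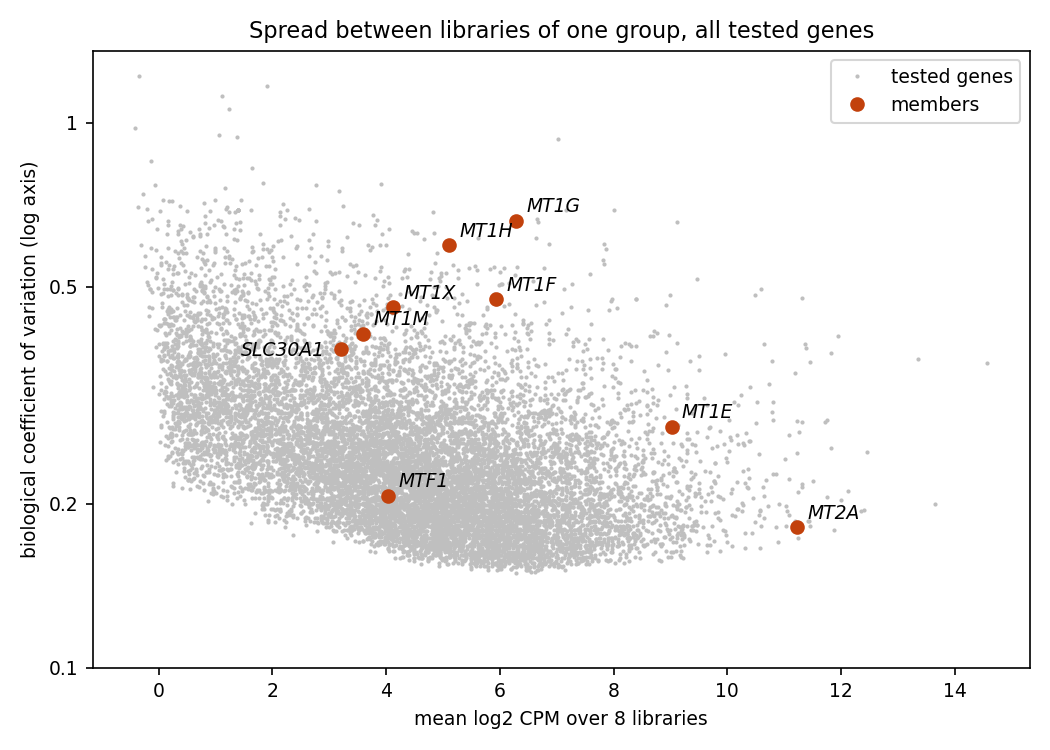
Biological coefficient of variation (log axis) against mean log2 CPM for all tested genes (grey) and the 9 members (orange). MT1G and MT1H lie near the top of the genes at their level, and MT2A and MTF1 lie low.

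Summed over the 7 metallothioneins, the level was 3566, 2798, 3417 and 2338 CPM in EDN1 1 to 4, and 3378, 3304, 3773 and 3148 CPM in mock 1 to 4. Without MT2A, the 6 MT1 genes summed to 965, 690, 1097 and 420 CPM in EDN1 1 to 4, and 949, 487, 918 and 780 CPM in mock 1 to 4. The 7-gene total was mostly MT2A. Levels of different genes were compared per kilobase of the deposited length. The order was MT2A at 5793 CPM per kilobase, MT1E at 1060, MT1G at 260, MT1F at 159, MT1H at 111, MT1X at 48.6, MT1M at 30.5, SLC30A1 at 4.89 and MTF1 at 2.06. By this scale, the libraries' ranges did not overlap between MT2A and MT1E, between MT1E and MT1G, or between MT1M and SLC30A1. They overlapped between all other neighbours in this order. QuantSeq counts tags from the 3′ ends of transcripts, so length need not scale the counts. MTF1, the longest transcript, is placed lower by this scale than by CPM, where it averaged 16.4 against 13.4 for MT1M. In CPM, not scaled by length, the ranges of MT1M (4.27 to 20.7) and SLC30A1 (4.20 to 17.9) overlapped.

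EDN1 4 was 1 of the 2 lowest libraries in all 9 genes and the lowest in 6. How often it took these places over all tested genes was not counted. Mock 2 was 1 of the 2 lowest in 6 genes, and in MT1E, MT1F, MT1H, MT1M, SLC30A1 and MTF1 these 2 libraries were the lowest pair. The same pair was lowest in 1335 tested genes, 10.6% of the table. The exceptions were MT2A, where mock 2 was next to the highest, MT1X, where it lay in the middle, and MT1G, where mock 4 was lower. EDN1 4, mock 2 and mock 4 were the 3 lowest libraries in MT1G, MT1H and MTF1, and in 8.60% of tested genes. The pair was picked out after its values were seen. EDN1 4 and mock 2 are in different groups and carry different replicate numbers, though both are in the second library set. EDN1 4 had 9132441 counts in all and mock 2 had 8409173, beside 8571252 in EDN1 2 and 8735340 in mock 3, and the part of depth in these values was not tested. With both left out, the remaining 6 libraries spanned 1.63 times in MT1F, 1.96 times in MT1M and 1.88 times in SLC30A1, but still 4.53 times in MT1G, 3.61 times in MT1X and 3.29 times in MT1H.

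Between the library sets, MT1G had 11.7 to 73.7 CPM in the second set and 116 to 188 CPM in the first. MT1H had 6.01 to 38.1 CPM in the second set and 49.1 to 82.3 CPM in the first. The sets nearly touched but did not overlap in MT1X and MTF1, whereas they overlapped in MT1E, MT1F, MT1M, MT2A and SLC30A1. The sets were formed from these libraries, so the values are a description with no test. A different split, at the largest gap in CDK4, a cell cycle kinase gene at 35.8 to 57.2 CPM in EDN1 3, EDN1 4 and mock 4 and 211 to 322 CPM in the others, was made after seeing the data. By that split MT1X had 5.77 to 13.9 CPM in the low CDK4 libraries and 22.7 to 33.2 CPM in the high ones, while MT1G overlapped. For neither split was the share of all tested genes without overlap counted. These values therefore do not set the members apart from other genes.

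**Figure D5:**
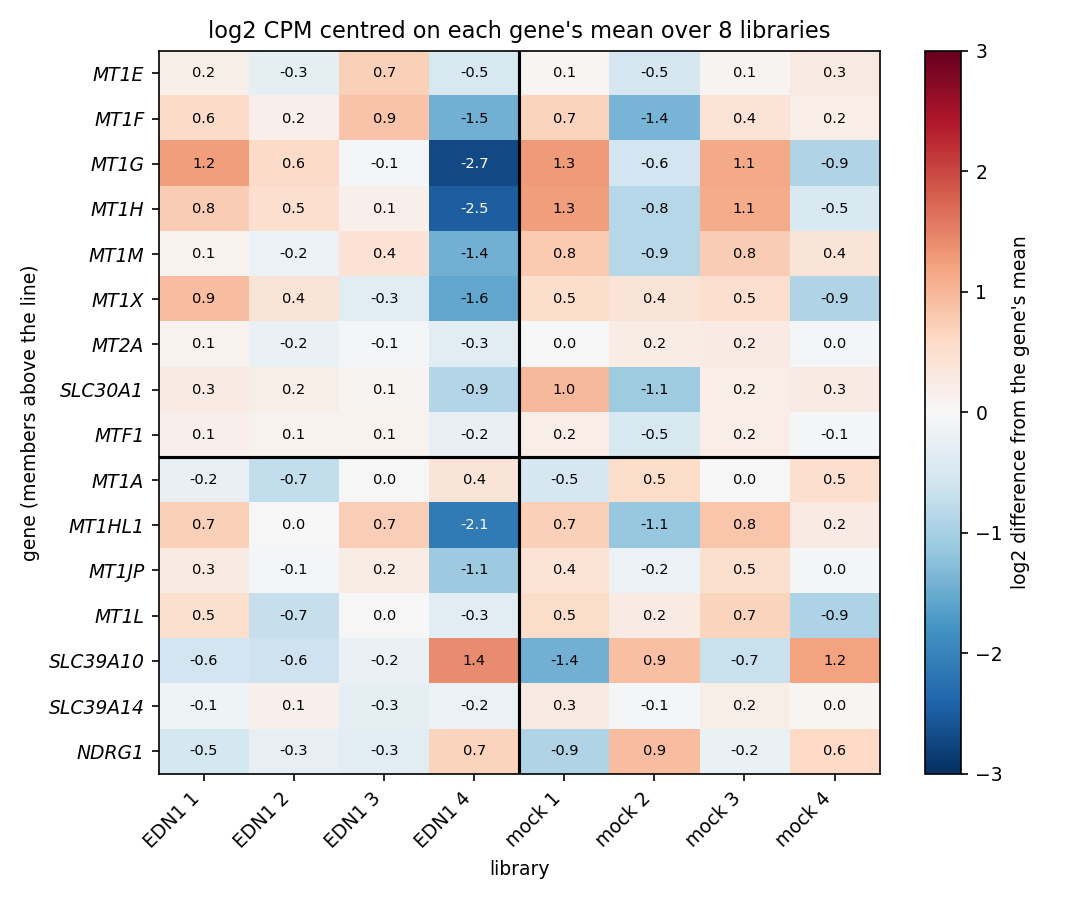
Log2 CPM of the 9 members (above the line) and 7 related genes (below it), as differences from the gene's 8-library mean, with EDN1 overexpression on the left and mock on the right. The low values of EDN1 4 run through MT1F, MT1G, MT1H, MT1M, MT1X and SLC30A1, whereas SLC39A10 and NDRG1 are high in EDN1 4, mock 2 and mock 4.

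Metallothionein transcripts resemble each other, and reads from 1 gene can be assigned to another. In the last 250 bases of the transcript of each gene closest to the deposited length (GENCODE 29), the share of 50-base windows found without mismatch in a transcript of another gene was 20.4% for MT1G, 19.9% for MT2A, 18.0% for MT1M, 16.4% for MT1H, 14.4% for MT1X and 2.49% for MT1E. Allowing 2 mismatches against other metallothionein genes, it was 65.0% for MT1M, 55.7% for MT1E, 46.8% for MT1H, 38.8% for MT1G, 27.9% for MT1X and 26.4% for MT2A. For MT1F, SLC30A1 and MTF1 it was 0% by both measures. SLC30A1 and MTF1 are not metallothionein genes, so the second measure says little about them. Between their highest and lowest libraries MT1F spanned 5.01 times, SLC30A1 4.27 times and MTF1 1.63 times. How the deposited counts treated reads with several matches is not given in the sources used here. The split between the other metallothionein genes is uncertain. The part of shared reads in the spread of any of the 9 genes was not tested. The MT1M transcript used has 232 bases, so the whole of it was scanned, where the deposited length is 440. The SLC30A1 transcript used has 5474 bases, where the deposited length is 2018.

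Of 11 other metallothionein genes and pseudogenes, 9 were in the table and 4 were tested, with 0 called in either direction and a list median of -0.27 (log2 fold change). MT1A, a further member of the cluster, had 33.4, 23.4, 38.6 and 51.2 CPM in EDN1 1 to 4, and 27.3, 56.7, 39.2 and 54.9 CPM in mock 1 to 4. It was highest in mock 2, mock 4 and EDN1 4, where MT1G and MT1H were lowest. Its log2 fold change was -0.28 (standard error 0.28). The pseudogenes MT1JP and MT1L stood at log2 fold changes of -0.26 (standard error 0.31) and -0.30 (standard error 0.43). MT1HL1, a gene resembling MT1H that is named here after its values were seen, had 3.23 CPM in EDN1 4 and 6.55 CPM in mock 2, against 14.6 to 26.2 CPM in the other libraries. MT1B had at most 8 counts in any library, MT1DP 6, MT1IP 3 and MT3 1. MT4 had 0 counts in every library, and a count of 0 allows up to 3 counts, or 0.201 to 0.357 CPM depending on the library.

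Among the other zinc transporters, no gene was called in either direction. The SLC30 family, most of whose members move zinc or manganese out of the cytosol, had 6 of 9 genes tested. These had 4 positive and 2 negative log2 fold changes and a median of 0.05. SLC30A9, a mitochondrial zinc carrier gene, stood at a log2 fold change of 0.18 (standard error 0.16), SLC30A6, a zinc transporter gene of the secretory pathway, at 0.11 (standard error 0.14), and SLC30A10, a manganese exporter gene, at -0.22 (standard error 0.31). The SLC39 family, which brings zinc and other metals into the cytosol, had 11 of 14 genes tested, with 6 positive and 5 negative values and a median of 0.01. SLC39A14, a zinc, iron and manganese importer gene, averaged 283 ± 36.5 CPM in EDN1 overexpression and 328 ± 33.5 CPM in mock (SD, n = 4 each), with a log2 fold change of -0.21 (standard error 0.15). SLC39A1, a zinc importer gene of the cell surface, stood at a log2 fold change of 0.26 (standard error 0.22), and SLC39A3, a related importer gene, at one of -0.48 (standard error 0.41).

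SLC39A10, a zinc importer gene that MTF1 represses in mice, is singled out after its values were seen. It had 8.87, 8.51, 11.6 and 35.8 CPM in EDN1 1 to 4, and 4.76, 25.1, 8.23 and 30.7 CPM in mock 1 to 4. The 3 libraries with the most SLC39A10, EDN1 4, mock 4 and mock 2, were the 3 with the least MT1G, in the same order. Those 3 were the highest libraries in 1183 tested genes, 9.41% of the table. SLC39A10 was at a log2 fold change of -0.10 (standard error 0.62). NDRG1, also tied to MTF1 in mice, had 166, 201, 194 and 384 CPM in EDN1 1 to 4, and 129, 453, 210 and 361 CPM in mock 1 to 4, with a log2 fold change of -0.29 (standard error 0.38). Of the 4 genes tested in the list tied to MTF1 in mice, 0 were called, with log2 fold changes of 0.14 (standard error 0.25) for CSRP1 and 0.09 (standard error 0.19) for SEPW1, a selenoprotein gene.

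Copper handling genes, some of which share metals with metallothioneins, had 12 of 12 genes tested and 0 called, with 7 positive and 5 negative log2 fold changes and a median of 0.03. SCO1, a copper chaperone of cytochrome oxidase, stood at a log2 fold change of 0.30 (standard error 0.23), SLC31A1, the main copper importer gene, at -0.19 (standard error 0.15), and CCS, the copper chaperone of superoxide dismutase, at 0.19 (standard error 0.17). Glucocorticoid-induced genes had 8 of 9 tested and 0 called, with a median of -0.10, and 1 had an unadjusted p under 0.05. That gene was TSC22D3, a glucocorticoid-induced leucine zipper gene, with 27.9, 38.0, 14.2 and 54.9 CPM in EDN1 1 to 4, and 72.3, 118, 54.2 and 57.8 CPM in mock 1 to 4. Its log2 fold change was -1.17 (standard error 0.38), edgeR gave it a p of 0.0111 (adjusted 0.9999), and EDN1 4 lay within the mock range. ERRFI1, an inhibitor gene of the EGF receptor, stood at a log2 fold change of -0.48 (standard error 0.27) and DUSP1, a MAP kinase phosphatase gene, at one of -0.29 (standard error 0.27).

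Other genes induced by heavy metals, of the heat shock and oxidative stress responses, had 13 of 14 tested and 0 called, with a list median of -0.14 (log2 fold change) and 1 unadjusted p under 0.05. SLC7A11, the cystine importer gene that supplies glutathione synthesis, had 197, 327, 200.4 and 386 CPM in EDN1 1 to 4, and 483, 388, 394 and 388 CPM in mock 1 to 4. The groups did not overlap, though EDN1 4 lay just under the lowest mock library, and the log2 fold change was -0.58 (standard error 0.23), with an edgeR p of 0.0298 (adjusted 0.9999). SRXN1, a sulfiredoxin gene, stood at a log2 fold change of -0.36 (standard error 0.20), and GCLC, a glutathione synthesis gene, at one of -0.38 (standard error 0.22). In SLC7A11, EDN1 1 and EDN1 3 were the lowest libraries.

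Among the genes outside the lists whose log2 CPM was most like the metallothionein score, the mean centred log2 CPM of the 7 genes, over the 8 libraries were SAR1A (Pearson r 0.99), TOR1A (0.97), SLC35C2 (0.97) and PGAM5 (0.97). Spearman's rho was 0.93, 0.88, 0.93 and 0.83 in that order. Leaving out EDN1 4 and mock 2, the 2 libraries farthest from the median score, r over the other 6 was 0.97, 0.84, 0.92 and 0.91. SAR1A encodes a GTPase of vesicle transport from the endoplasmic reticulum, TOR1A an ATPase of that compartment and PGAM5 a mitochondrial phosphatase. Of 8624 genes compared, 194 (2.25%) had r over 0.9 and 137 had r under -0.9. These are descriptions of 8 libraries that share their 2 library sets. These 4 genes spanned 1.51 to 2.00 times between libraries, far less than MT1G.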

How the data were processed

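Libraries were made by Lexogen QuantSeq, per the labels' protocols, and the authors deposited a table of raw read counts for each gene and library. The submitters' processing notes list Bowtie2, edgeR and hg19. The sources used here do not state versions, the counting tool or the strand setting. Groups and replicate numbers came from the sample titles. Of 25737 rows, 288 symbols stood on more than 1 row and were summed, except MARCH1 and MARCH2, leaving 24462 genes. Deposited gene lengths served only to set levels per kilobase.

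Genes were filtered with filterByExpr (minimum count 10), scaled by TMM and tested by the quasi-likelihood method of edgeR 4.0.16 (R 4.3.3), with group as its single factor, and calls were made at a Benjamini-Hochberg adjusted p under 0.05. Intervals are 95% intervals, log2 CPM uses a prior count of 2, and marker sums and the floor of 3 counts use library totals. The test was checked on simulated counts that held no library sets, so that check does not cover the structure seen in these libraries. No 2 libraries agreed within sampling noise (chi-square per degree of freedom 6.49 to 92.7). The members and gene lists were chosen with earlier results of these data known, so no count here is independent evidence. Genes are named by a rule: all members, up to 3 genes with the smallest unadjusted p in each list, and the 5 most alike in pattern, of which 1 is not reported here. List genes were picked by p in these libraries, so their fold changes do not stand for their lists. Promoters are RefSeq's (GRCh38.p14), and transcript ends are GENCODE 29's. DESeq2 1.42.0, limma voom (limma 3.58.1), other scalings and filters, library sets and left-out libraries were the alternatives.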

Additional observations from a re-analysis of the deposited data

Results flagged for a closer look

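A library stood far from the other 3 of its group, with a gap over the group's range above Dixon's 95% critical value for 4 samples, in 5 of 72 groups of named genes tested. Chance flags about 1 in 20. MT1X was at 9.19 CPM in mock 4, against 22.7 to 24.97 CPM in the other mock libraries. MTF1 was at 13.7 CPM in EDN1 4, against 17.5 to 18.0 CPM in the other EDN1 overexpression libraries. NDRG1 was at 384 CPM in EDN1 4, against 166 to 201 CPM in the others. CCS was at 29.3 CPM in mock 4, against 20.4 to 21.4 CPM in the other mock libraries. SLC7A11 was at 483 CPM in mock 1, against 388 to 394 CPM in the other mock libraries.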

How the results depend on the processing

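None of the 9 genes was called under any of the 24 alternatives (20 planned, 4 chosen after seeing the data), and EDN1 was called in each of them. Genes called over the table stayed at 1 under every alternative but DESeq2, which called 3 (EDN1, TMSB4X and LGI1). At an unadjusted p under 0.05 the table held 359 genes, and 45 (low CDK4 libraries alone) to 740 (first library set alone) under the alternatives. MT1H, MT1M and MT2A kept their direction in all 24 alternatives, though MT1H was at 0.00 in the second library set alone. Each of the other 6 genes changed sign in at least 1 of the alternatives. The alternatives reuse the same libraries, and in the main test the interval of each of the 9 genes spans both signs. The sign is therefore not settled for any of the 9 genes, MT1H, MT1M and MT2A included. In the first library set alone the log2 fold change was -0.10 for MT1E, -0.16 for MT1F, 0.18 for MT1X and -0.08 for MTF1. In the low CDK4 libraries alone, with a lone mock library assumed to vary like the others, it was -0.04 for MT1E, -0.07 for MT1F, 0.03 for MT1G, 0.10 for MT1X and -0.01 for MTF1. In the high CDK4 libraries alone it was 0.12 for MT1G and 0.22 for MT1X, and with the CDK4 set as a term 0.10 and 0.19. With EDN1 4 and mock 2 both left out it was 0.26 for MT1X and -0.01 for MTF1. Leaving out each library in turn gave -0.17 to 0.26 for MT1E, -0.17 to 0.41 for MT1F, -0.76 to 0.13 for MT1G, -0.69 to -0.05 for MT1H, -0.78 to -0.27 for MT1M, -0.52 to 0.20 for MT1X, -0.31 to -0.16 for MT2A, -0.56 to 0.06 for SLC30A1 and -0.08 to 0.13 for MTF1. The sign turned without EDN1 3 or mock 2 for MT1E, EDN1 1, EDN1 3 or mock 2 for MT1F, EDN1 4, mock 1 or mock 3 for MT1G, EDN1 3, EDN1 4, mock 1 or mock 3 for MT1X, mock 1 for SLC30A1 and mock 2 for MTF1. The replicate number as a block gave 1 called gene and log2 fold changes of 0.06 for MT1E, 0.08 for MT1F, -0.46 for MT1G, -0.52 for MT1H, -0.55 for MT1M, -0.24 for MT1X, -0.23 for MT2A, -0.23 for SLC30A1 and 0.06 for MTF1. Same-numbered libraries deviated from their group means with correlations of 0.477, 0.151, -0.149 and 0.528 for numbers 1 to 4. Libraries 1 and 4 of each group correlated best with the same number in the other group and libraries 2 and 3 did not, so the numbers were not taken to pair the libraries. The causes of these shifts were not tested. Counts per library were at least 16611 for MT2A and as few as 34 for SLC30A1, which has the least precise counts.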
